A study of Homo sapiens with 9 samples.

Results

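A group of 39 genes of the DNA replication machinery was examined in U2OS cells. It covers the licensing of replication origins, the polymerases and clamp of the replication fork, and the enzymes that make DNA precursors. The members were taken by gene symbol from a fixed list that leaves out the MCM2-7 and GINS helicase subunits, and all 39 were found among the 70116 gene IDs of the count table. All 39 also passed the low-count filter, among 19408 genes tested.

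U2OS is an established human osteosarcoma cell line, and poly(A)-selected RNA was sequenced from 9 libraries in 3 groups of 3. PERK knockout (KO) cells, made from U2OS with CRISPR/Cas9, were given palbociclib for 4 days. Wild-type (WT) U2OS cells were given palbociclib in one group and vehicle in the other. PERK, encoded by EIF2AK3, is a stress kinase of the endoplasmic reticulum, and palbociclib inhibits the cell cycle kinases CDK4 and CDK6. KO cells on vehicle were not analysed here, so the drug response of KO cells was not measured. The labels do not say whether the KO cells are 1 clone or a pool, nor whether the set numbers 1 to 3 are separate cultures, so p-values speak only of how these libraries vary, possibly for technical reasons.

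EIF2AK3 stood at 19.7, 18.7 and 17.8 CPM (counts scaled to library size) in KO libraries, against 35.7, 36.8 and 31.8 CPM in WT libraries on palbociclib and 31.7, 34.8 and 32.8 CPM in WT libraries on vehicle. The mRNA of the targeted gene was therefore lower in every KO library and still present. Library totals ran from 33674039 to 42577874 counts. Of 8 mesenchymal and osteoblast markers, VIM, COL1A1 and SPARC stood at 1001 CPM or more in every library. RUNX2 stood at 28.1 to 42.8 CPM, SPP1 at 4.13 to 15.4 CPM, ALPL at 2.33 to 9.32 CPM and COL1A2, the partner chain of COL1A1, at 1.36 to 3.11 CPM, while the osteoblast factor SP7 and the T cell marker CD3E had 0 counts throughout. The 8 summed to 7804 to 9565 CPM in KO libraries, 7514 to 8586 CPM in WT libraries on palbociclib and 5129 to 5494 CPM on vehicle, sums carried by COL1A1, SPARC and VIM. RUNX2 (log2 fold change -0.40) and ALPL (-0.66) were lower in KO than in WT cells on palbociclib (edgeR adjusted p = 0.0202 and 0.0016). The 4 epithelial markers summed to 19.1 to 20.3, 28.3 to 30.3 and 29.1 to 31.1 CPM in the same order of groups, the 4 endothelial ones to 3.37 to 3.84, 3.45 to 4.11 and 2.23 to 2.66 CPM, and the 4 haematopoietic ones to at most 0.635 CPM. Within the epithelial list, CDH1 rose with palbociclib in WT cells by 1.16 on the log2 scale (edgeR adjusted p = 4.63e-06) and was lower in KO than in WT cells on the drug (-0.77, edgeR adjusted p = 0.00057). The part of these marker differences in the results below was not tested.

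Before S phase, the origin recognition complex, CDC6 and CDT1 load the MCM helicase onto origins, and geminin stops a second loading once S phase has begun. CDC45 and MCM10 help to switch the helicase on. Polymerase alpha with its primase then starts each strand, polymerase epsilon and polymerase delta extend the leading and lagging strands, and PCNA, loaded by the RFC complex, clamps polymerases to DNA. Many of these genes are textbook targets of E2F factors, which the retinoblastoma protein holds back until CDK4 and CDK6 phosphorylate it. In bulk RNA, fewer cells in S phase and less mRNA in each cell cannot be told apart.

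The promoters of 35 of the 39 members were found in the RefSeq promoter table (build GRCh38.p14), each window reaching from 250 bases before to 50 bases after a start site and some genes having several. An E2F word (TTTCCCGC, TTTCGCGC, TTTGCCGC or TTTGGCGC, either strand) lay in a window of 15 of these 35 genes (42.9%), against 3.99% of the 27305 genes of the table, and in 34.8% of the 46 windows of members against 3.31% of all 35116 windows. The CCAAT box bound by NF-Y lay in windows of 23 of the 35 genes (65.7%, against 39.7% of all genes). The cell cycle homology words TTTGAA and TTCGAA, known from mitotic promoters, were found in 1 of the 35, RRM1 (2.86%, against 19.5%). These are letter matches, and no binding was measured. The genes compared against were not matched to the members for base composition. Close variants such as TTTGGCGGG, left in lower case in the CDC6 window below, were not counted. Below are 6 windows, 5′ to 3′ on the gene's strand. CDC6 is shown as the member with the largest rise in KO cells, POLE2 and TIPIN for their steep falls with the drug, PCNA as the member with the most negative fold change between KO and WT cells on the drug, TK1 as an early S phase gene without an E2F word, and RPA1 as the member that fell least. Capitals mark E2F words (GCGGGAAA, GCGCCAAA and the like on the other strand) and CCAAT boxes (ATTGG on the other strand).
CDC6, chr17:40287629-40287928, plus strand: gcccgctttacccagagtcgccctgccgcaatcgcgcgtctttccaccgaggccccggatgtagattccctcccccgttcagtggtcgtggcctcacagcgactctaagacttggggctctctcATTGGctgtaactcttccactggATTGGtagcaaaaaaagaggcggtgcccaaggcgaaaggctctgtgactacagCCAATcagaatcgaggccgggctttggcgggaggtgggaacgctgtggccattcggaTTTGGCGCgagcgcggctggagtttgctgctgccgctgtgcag
POLE2, chr14:49688165-49688464, minus strand: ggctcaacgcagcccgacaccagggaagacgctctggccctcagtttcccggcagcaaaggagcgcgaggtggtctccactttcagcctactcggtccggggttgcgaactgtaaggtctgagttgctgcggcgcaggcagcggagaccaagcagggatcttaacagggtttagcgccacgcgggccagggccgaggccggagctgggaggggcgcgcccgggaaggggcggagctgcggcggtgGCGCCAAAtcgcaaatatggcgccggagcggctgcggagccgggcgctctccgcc
PCNA, chr20:5126573-5126872, minus strand: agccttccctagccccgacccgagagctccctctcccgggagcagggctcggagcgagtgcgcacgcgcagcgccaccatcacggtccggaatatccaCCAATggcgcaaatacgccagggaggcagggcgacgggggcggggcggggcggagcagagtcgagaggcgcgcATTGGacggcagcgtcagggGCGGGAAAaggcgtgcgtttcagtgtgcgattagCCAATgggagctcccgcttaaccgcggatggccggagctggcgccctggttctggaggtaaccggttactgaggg
TIPIN, chr15:66356636-66356935, minus strand: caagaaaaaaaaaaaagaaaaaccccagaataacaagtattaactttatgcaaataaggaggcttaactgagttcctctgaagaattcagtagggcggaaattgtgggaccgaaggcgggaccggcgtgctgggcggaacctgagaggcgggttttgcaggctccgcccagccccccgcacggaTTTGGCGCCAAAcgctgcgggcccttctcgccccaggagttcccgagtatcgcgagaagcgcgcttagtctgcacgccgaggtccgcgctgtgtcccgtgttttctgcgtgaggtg
TK1, chr17:78187003-78187302, minus strand: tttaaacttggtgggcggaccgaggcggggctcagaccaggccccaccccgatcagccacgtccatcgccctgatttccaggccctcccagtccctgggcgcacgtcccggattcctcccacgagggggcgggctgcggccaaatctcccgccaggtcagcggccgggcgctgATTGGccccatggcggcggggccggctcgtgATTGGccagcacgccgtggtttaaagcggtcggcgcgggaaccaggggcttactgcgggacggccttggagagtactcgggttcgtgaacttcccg
RPA1, chr17:1829755-1830054, plus strand: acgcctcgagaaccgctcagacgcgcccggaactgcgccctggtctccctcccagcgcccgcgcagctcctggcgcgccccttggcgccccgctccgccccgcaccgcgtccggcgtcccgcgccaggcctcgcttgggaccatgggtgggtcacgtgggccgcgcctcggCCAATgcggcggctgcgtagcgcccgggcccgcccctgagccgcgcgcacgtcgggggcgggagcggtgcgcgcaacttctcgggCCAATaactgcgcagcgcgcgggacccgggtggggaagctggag
The TIPIN window holds 2 E2F words on opposite strands that overlap by 4 bases, so that they read as one run of capitals. The PCNA window shown carries an E2F word with CCAAT boxes on both sides of it. TIPIN, PCNA and TK1 each have another promoter window, not shown, that holds no E2F word.

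The first comparison asked how CDK4/6 inhibition changed the replication genes of WT cells. All 39 members fell with palbociclib (edgeR quasi-likelihood test, Benjamini-Hochberg adjusted p under 0.05 over all genes tested) and 0 rose, where 22.3% of all tested genes were called lower and 21.3% higher. In each of the 39, every palbociclib library lay below every vehicle library, which was so for 26.9% of all tested genes. The log2 fold changes ran from -0.91 to -0.19 with a median of -0.64, beside a median of -0.02 over all genes tested, and no member fell by 2-fold or more, as 1.47% of all tested genes did. Within each of the 3 sets, all 39 members were lower on palbociclib than on vehicle. This was so for 52.2, 53.3 and 49.7% of all tested genes in sets 1, 2 and 3. As a share of all counts, the members made up 0.363, 0.369 and 0.334% of WT libraries on palbociclib, against 0.527, 0.527 and 0.524% on vehicle.

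**Figure D1:**
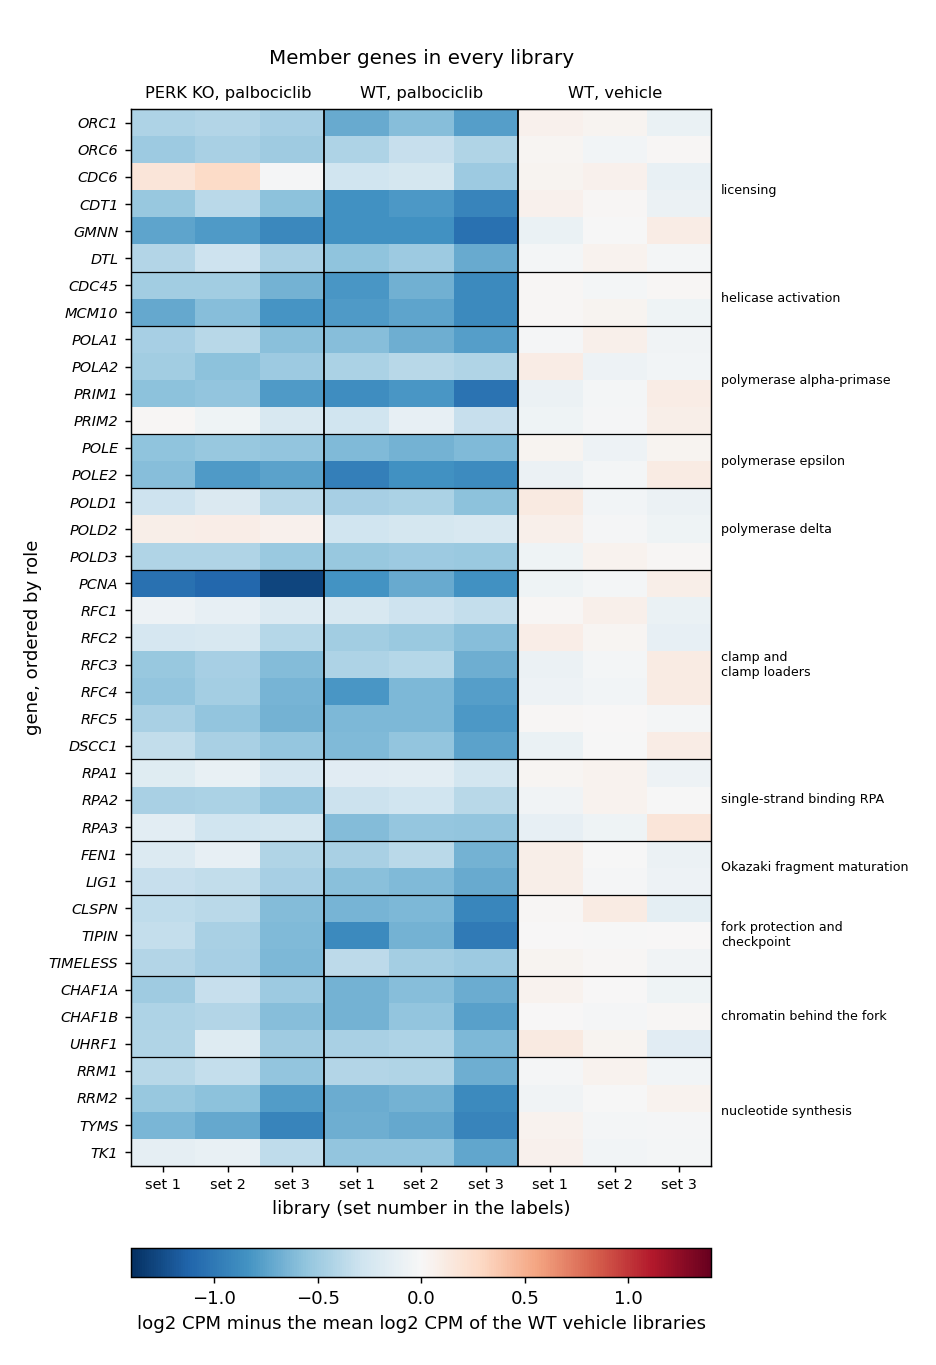
Level of each of the 39 members (rows, by role) in each of the 9 libraries (columns), as log2 CPM minus the mean of the WT vehicle libraries, on a colour scale from blue (lower) to red (higher). All 39 rows are blue in the WT palbociclib libraries, and most are paler in the KO libraries, with PCNA darker there and CDC6 and POLD2 near or above 0.

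Licensing factors fell in all 6 cases. GMNN, encoding geminin, stood at 25.8, 25.8 and 22.6 CPM in WT libraries on palbociclib, against 43.6, 46.2 and 49.9 CPM on vehicle. Its log2 fold change was -0.91 ± 0.068 (SE, n = 3 libraries a group here and below, edgeR adjusted p = 2.58e-09), among the largest falls of the set. CDT1, the loader that geminin binds, stood at 50.7, 52.3 and 48.1 CPM on palbociclib, against 95.1, 92.3 and 85.8 CPM on vehicle (log2 fold change -0.85 ± 0.059). The log2 ratio of CDT1 to GMNN averaged 1.03 ± 0.057 on palbociclib and 0.97 ± 0.17 on vehicle (SD, n = 3), with libraries of both groups interleaved. ORC1 (-0.69), the origin recognition subunit whose level cycles in human cells, DTL (-0.59), the ubiquitin ligase receptor that directs CDT1 to degradation, and ORC6 (-0.39) fell by less. CDC6 fell least of the 6, to 130, 133 and 111 CPM on palbociclib, against 162, 164 and 147 CPM on vehicle (-0.34 ± 0.079).

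Both helicase activators fell by similar amounts. MCM10 stood at 68.8, 71.6 and 64.6 CPM on palbociclib, against 121, 123 and 115 CPM on vehicle (log2 fold change -0.81 ± 0.058, edgeR adjusted p = 1.51e-09). CDC45, which becomes part of the moving helicase, stood at 72.9, 80.2 and 69 CPM on palbociclib, against 129, 126 and 129 CPM on vehicle (-0.79 ± 0.059).

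Within the polymerases, the falls differed between subunits. PRIM1, the catalytic primase subunit, stood at 31.1, 32.2 and 27.7 CPM on palbociclib, against 53.7, 55.8 and 61 CPM on vehicle (log2 fold change -0.91 ± 0.072, edgeR adjusted p = 1.12e-08), whereas its partner PRIM2 fell by only 0.24 ± 0.065 on the log2 scale. PRIM2 is one of 2 members whose call was lost without WT palbociclib library 3 (edgeR adjusted p = 0.068), RPA1 being the other (0.074). The polymerase alpha subunits POLA1 (-0.69 ± 0.060) and POLA2 (-0.42 ± 0.084) also fell. POLE2, the second subunit of polymerase epsilon, stood at 29.9, 32.1 and 31.5 CPM on palbociclib, against 54.7, 56.7 and 62.6 CPM on vehicle (-0.89 ± 0.064). The catalytic subunit POLE fell by 0.64 ± 0.047 on the log2 scale. The polymerase delta subunits POLD3 (40.9, 41.6 and 41.2 CPM on palbociclib, against 56.9, 61.2 and 59.8 CPM on vehicle, -0.52 ± 0.052), POLD1 (-0.49 ± 0.060) and POLD2 (-0.25 ± 0.047) fell by less than POLE2. Differences between members in their fold changes were not themselves tested.

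Among the clamp and its loaders, PCNA stood at 165, 181 and 164 CPM on palbociclib, against 283, 289 and 311 CPM on vehicle (log2 fold change -0.79 ± 0.061, edgeR adjusted p = 5.44e-09). RFC4 (-0.74), RFC5 (-0.68), RFC2 (-0.54) and RFC3 (-0.50), the small loader subunits, fell more than RFC1 (-0.28), the large one, and DSCC1, part of an alternative loader that acts in sister chromatid cohesion, fell by 0.64 on the log2 scale. The RPA complex, which coats single-stranded DNA, held some of the smallest changes. RPA1, its largest subunit, had the smallest fold change of all 39 (-0.19 ± 0.051, edgeR adjusted p = 0.00614) and RPA2 fell by 0.32 ± 0.051 on the log2 scale. RPA3 stood at 70.1, 73.3 and 72.4 CPM on palbociclib, against 98.6, 102 and 120 CPM on vehicle (-0.57 ± 0.065).

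At the finishing steps, LIG1, the ligase that joins Okazaki fragments, stood at 92.8, 90.4 and 85.5 CPM on palbociclib, against 147, 138 and 133 CPM on vehicle (log2 fold change -0.64 ± 0.053, edgeR adjusted p = 1.06e-08), and FEN1, the flap nuclease, fell by 0.49 ± 0.084 on the log2 scale. In the fork protection complex, TIPIN stood at 19.1, 22.4 and 17.9 CPM on palbociclib, against 35.6, 35.3 and 35.5 CPM on vehicle (-0.84 ± 0.080). Its partner TIMELESS fell by 0.45 ± 0.057 and the checkpoint mediator CLSPN by 0.73 ± 0.093 on the log2 scale. Histone deposition behind the fork was represented by CHAF1B, at 22.6, 24.3 and 21 CPM on palbociclib, against 35.7, 35.1 and 36.1 CPM on vehicle (-0.66 ± 0.067), and by CHAF1A (-0.65 ± 0.056). UHRF1, which recognises newly copied methylated DNA, fell by 0.51 ± 0.091 on the log2 scale.

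All 4 enzymes of deoxynucleotide synthesis fell. TYMS, thymidylate synthase, stood at 122, 119 and 103 CPM on palbociclib, against 202, 192 and 193 CPM on vehicle (log2 fold change -0.77 ± 0.073, edgeR adjusted p = 6.54e-07). RRM2, the S phase subunit of ribonucleotide reductase, stood at 320, 327 and 279 CPM on palbociclib, against 501, 515 and 536 CPM on vehicle (-0.74 ± 0.069). Its partner RRM1, whose protein is less tied to S phase, fell by 0.50 ± 0.069 on the log2 scale, and the log2 ratio of RRM2 to RRM1 stood at 0.85, 0.89 and 0.93 on palbociclib, against 1.10, 1.07 and 1.22 on vehicle. Those ratios do not overlap, and an exact permutation test of 3 against 3 libraries cannot go below p = 0.1. TK1, thymidine kinase, stood at 258, 258 and 230 CPM on palbociclib, against 397, 370 and 372 CPM on vehicle (-0.61 ± 0.064).

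The 15 members with an E2F word had a median log2 fold change of -0.69 with palbociclib (-0.91 to -0.34), and the 20 with a promoter window but no such word a median of -0.57 (-0.91 to -0.19). The ranges overlap almost whole, and PRIM1, among the largest falls, carries none of these words. The split depends on the words chosen. CDC45, MCM10 and CHAF1A, placed in the group without, hold the uncounted variant TTTGGCGGG on either strand.

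The second comparison asked how KO cells differed from WT cells when both were on palbociclib. Of the 39 members, 21 were higher in KO cells, 2 were lower and 16 were not called, where 14.9% of all tested genes were called higher and 13.0% lower. Groups did not overlap for 20 members with KO higher and for 4 with KO lower, against 21.8% and 19.5% of all tested genes. The median log2 fold change was 0.18 (-0.35 to 0.48), beside 0.01 over all genes tested, so the differences were small. Within sets 1, 2 and 3, KO stood above WT for 32, 34 and 33 of the 39 members, against 52.4, 52.6 and 50.1% of all tested genes. The count of 21 depended on single libraries: it was 10 without WT palbociclib library 3 and 11 without KO library 2, with medians that stayed positive (0.12 to 0.22 over the libraries left out in turn). Shares of all tested genes called in those fits are not given here. A loss of calls among members therefore cannot be told from one over all genes.

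**Figure D2:**
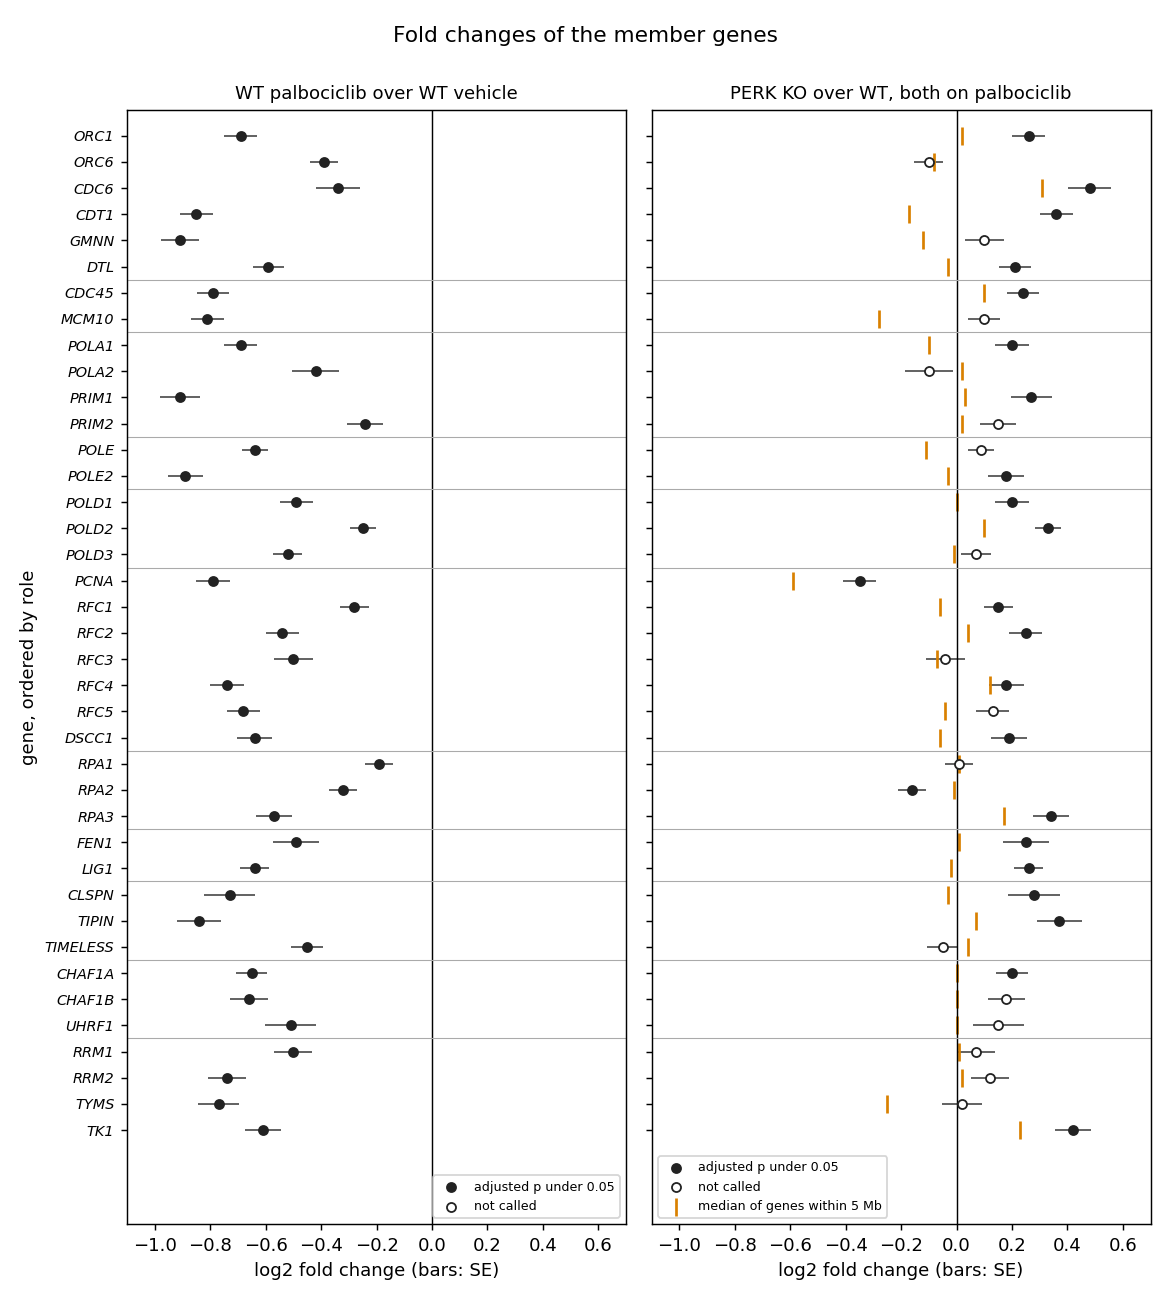
Log2 fold change with its SE for each member (rows), in WT palbociclib over WT vehicle (left) and in KO over WT on palbociclib (right), with filled points for adjusted p under 0.05. Every left-hand point lies below 0, the right-hand points lie between -0.35 and 0.48, and the orange ticks, the median of other genes within 5 Mb, stand at -0.59 for PCNA and 0.31 for CDC6.

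In licensing, CDC6 differed most. It stood at 177, 189 and 156 CPM in KO libraries, against 130, 133 and 111 CPM in WT libraries on palbociclib (log2 fold change 0.48 ± 0.079, edgeR adjusted p = 0.000431). CDC6 lies on chromosome 17 (40287633 to 40304657, GRCh38), where the 191 other tested genes starting within 5 Mb had a median of 0.31, and 0.17 remained after that was subtracted. CDT1 stood at 62.8, 70.3 and 60.9 CPM in KO libraries, against 50.7, 52.3 and 48.1 CPM in WT libraries on palbociclib (0.36 ± 0.060), while its neighbours on chromosome 16 had a median of -0.17. ORC1 (0.26) and DTL (0.21) were also higher. GMNN (27.8, 26.8 and 24.8 CPM in KO libraries, against 25.8, 25.8 and 22.6 CPM in WT libraries) and ORC6 were not called (edgeR adjusted p = 0.334 and 0.183). The log2 ratio of CDT1 to GMNN stood at 1.18, 1.39 and 1.30 in KO libraries, above its 0.98, 1.02 and 1.09 in WT libraries on palbociclib.

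**Figure D3:**
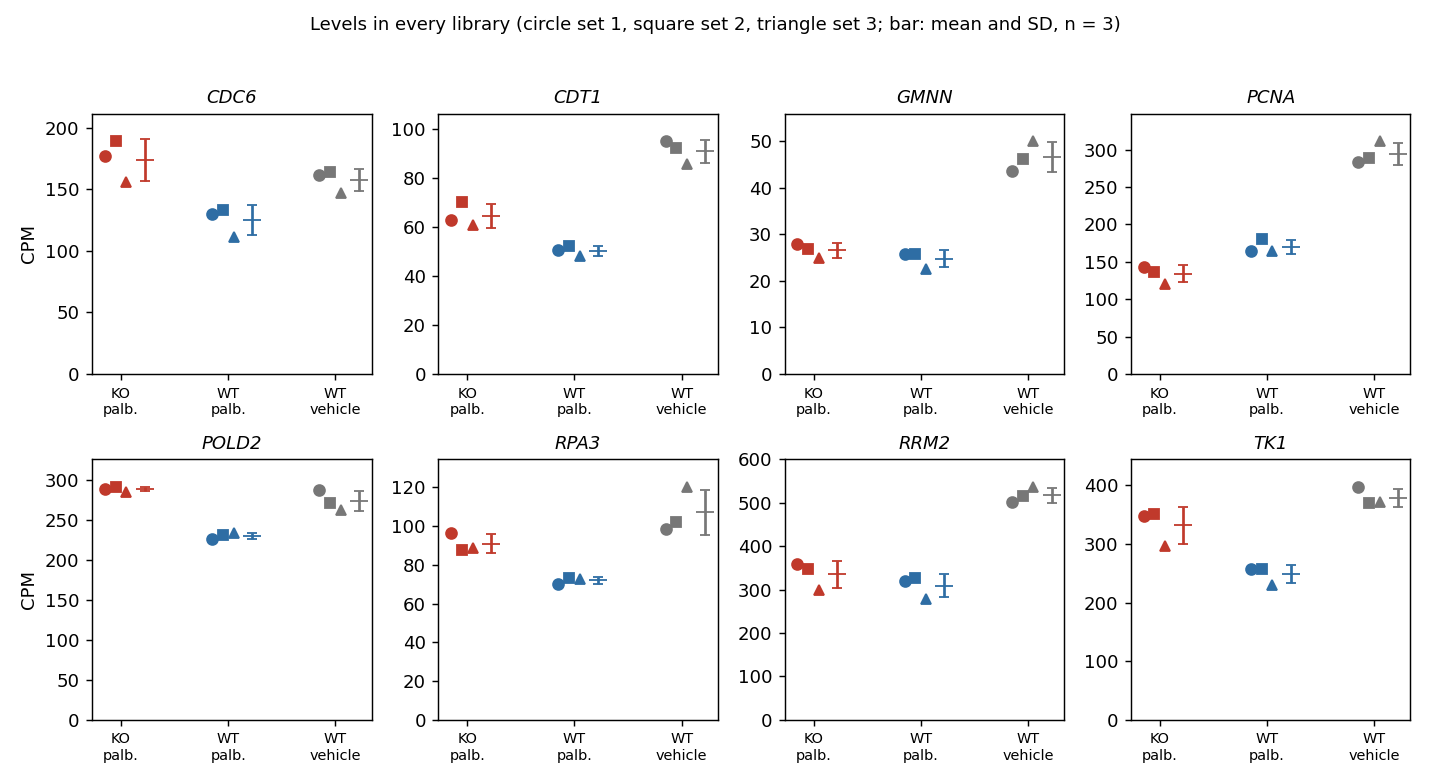
CPM of 8 members in each library (circle, square and triangle for sets 1, 2 and 3), with the mean and SD of 3 libraries, in KO on palbociclib, WT on palbociclib and WT on vehicle. For CDC6 and POLD2 the KO libraries reach the range of the vehicle libraries or above, for PCNA they lie below both WT groups, and for GMNN and RRM2 they overlap the WT palbociclib libraries.

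PCNA went the other way. It stood at 143, 137 and 121 CPM in KO libraries, against 165, 181 and 164 CPM in WT libraries on palbociclib, with no overlap (log2 fold change -0.35 ± 0.061, edgeR adjusted p = 0.000239). PCNA lies on the short arm of chromosome 20 (5114953 to 5126626, GRCh38), and the 85 other tested genes starting within 5 Mb had a median of -0.59. Relative to those neighbours it stood 0.24 higher on the log2 scale. RPA2 was the other member lower in KO cells, at 52.8, 53.3 and 50 CPM, against 58.7, 59.6 and 55.6 CPM in WT cells (-0.16 ± 0.051, edgeR adjusted p = 0.0274, with neighbours at -0.01). That call was lost without WT palbociclib library 1 or 2 or KO library 3 (edgeR adjusted p = 0.0924, 0.121 and 0.134).

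The other RPA subunits did not follow RPA2. RPA3 stood at 96.3, 87.6 and 88.8 CPM in KO libraries, against 70.1, 73.3 and 72.4 CPM in WT libraries on palbociclib (log2 fold change 0.34 ± 0.065, edgeR adjusted p = 0.000621, with neighbours at 0.17). RPA1 was not called, at 155, 162 and 148 CPM in KO libraries, against 156, 158 and 146 CPM in WT libraries (0.01 ± 0.051, edgeR adjusted p = 0.888).

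Among helicase activators and polymerases, 6 of 11 members were higher in KO cells. CDC45 stood at 91, 91.4 and 80.7 CPM in KO libraries, against 72.9, 80.2 and 69 CPM in WT libraries (log2 fold change 0.24 ± 0.059, edgeR adjusted p = 0.00383). PRIM1 stood at 38.1, 38.8 and 32.7 CPM in KO libraries, against 31.1, 32.2 and 27.7 CPM in WT libraries (0.27 ± 0.073), and POLE2 at 38.4, 33.4 and 34.4 CPM, against 29.9, 32.1 and 31.5 CPM (0.18 ± 0.065, edgeR adjusted p = 0.04). The POLE2 call was lost with DESeq2 (adjusted p = 0.084) and limma-voom (0.0619). With edgeR it was lost with RLE size factors (adjusted p = 0.0573) and without the low-count filter (0.052). Leaving out single libraries, such as KO library 1 (edgeR adjusted p = 0.22), also removed it in several fits. POLD2, the accessory subunit of polymerase delta, stood at 289, 291 and 285 CPM in KO libraries, against 226, 231 and 234 CPM in WT libraries (0.33 ± 0.047, edgeR adjusted p = 2.19e-05). POLA1 and POLD1 were higher by 0.20 each on the log2 scale. MCM10, PRIM2, POLA2, POLE and POLD3 were not called, with log2 fold changes from -0.10 to 0.15.

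Of the clamp loaders, RFC2 (0.25), DSCC1 (0.19), RFC4 (0.18) and RFC1 (0.15) were higher in KO cells, while RFC3 and RFC5 were not called. The calls for RFC4 (adjusted p = 0.0877), RFC1 (0.0768) and DSCC1 (0.0695) were lost with DESeq2, and RFC4 libraries of both groups overlapped. These calls were also lost with RLE size factors (edgeR adjusted p = 0.0637, 0.0669 and 0.0519 in the same order). LIG1 stood at 111, 110 and 101 CPM in KO libraries, against 92.8, 90.4 and 85.5 CPM in WT libraries on palbociclib (log2 fold change 0.26 ± 0.053, edgeR adjusted p = 0.000933), and FEN1 was higher by 0.25 ± 0.084, although its groups overlapped and the call was lost with RLE size factors (edgeR adjusted p = 0.0638) and with only the 2 groups compared (0.084). TIPIN stood at 28.2, 25.8 and 23.1 CPM in KO libraries, against 19.1, 22.4 and 17.9 CPM in WT libraries (0.37 ± 0.081, edgeR adjusted p = 0.00175), without overlap, and CLSPN was higher by 0.28 ± 0.093, a call lost with RLE size factors (edgeR adjusted p = 0.0652). The CLSPN call was also lost without WT vehicle library 1, WT palbociclib library 1 or KO library 1 (edgeR adjusted p = 0.0804, 0.053 and 0.128). Without WT vehicle library 2 or 3, WT palbociclib library 1 or KO library 1, FEN1 was not called (edgeR adjusted p = 0.0626, 0.0627, 0.0697 and 0.114). TIMELESS was not called (-0.05 ± 0.057). CHAF1A stood at 52.5, 59.2 and 52.2 CPM in KO libraries, against 46.9, 49.3 and 46 CPM in WT libraries (0.20 ± 0.057, edgeR adjusted p = 0.0106). That call was lost without WT palbociclib library 3 (edgeR adjusted p = 0.0615) and without KO library 2 (0.0906). The calls of PRIM1, POLA1, POLD1, DTL, RFC1, RFC4, DSCC1, FEN1 and CLSPN were lost in both of these fits too. Once set number was added as a replicate block, CHAF1B, UHRF1 and RFC5 were called higher as well (edgeR adjusted p = 0.0182, 0.0124 and 0.0391), and the block called 19.5% of all tested genes higher and 16.9% lower.

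In nucleotide synthesis, 1 of 4 members was higher. TK1 stood at 348, 352 and 296 CPM in KO libraries, against 258, 258 and 230 CPM in WT libraries on palbociclib (log2 fold change 0.42 ± 0.064, edgeR adjusted p = 7.01e-05). It lies on chromosome 17 (78174075 to 78187233, GRCh38), where neighbours had a median of 0.23. TYMS stood at 126, 119 and 103 CPM in KO libraries, against 122, 119 and 103 CPM in WT libraries, with overlapping groups and no call (0.02 ± 0.073, edgeR adjusted p = 0.891, with neighbours at -0.25). RRM1 (0.07 ± 0.070) and RRM2 (0.12 ± 0.069) were not called. After subtraction of the neighbourhood median, 35 of the 39 members lay above 0 and 4 below, with a median of 0.21, and all 21 members called higher kept a positive value. The count above and below 0 was not made over all tested genes.

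The third comparison set KO cells on palbociclib against WT cells on vehicle, and it shares its libraries with both others. Of the 39 members, 36 were lower in KO cells on the drug and 0 were higher by the edgeR test, at an unadjusted p under 0.05 as well, where 26.0% of all tested genes were called lower and 25.7% higher. DESeq2 and limma-voom called 0 higher too. The median log2 fold change was -0.47 (-1.14 to 0.14). PCNA, at 143, 137 and 121 CPM in KO libraries on palbociclib, against 283, 289 and 311 CPM in WT libraries on vehicle, was the 1 member past a 2-fold change (-1.14 ± 0.061, edgeR adjusted p = 1.81e-11), with neighbours at -0.62, where 2.91% of all tested genes were called and at least 2-fold lower. GMNN (-0.82), TYMS (-0.75), MCM10 (-0.71) and POLE2 (-0.71) came next. The 3 members not called were CDC6 (0.14 ± 0.078), POLD2 (0.08 ± 0.047) and PRIM2 (-0.09 ± 0.065). With the replicate block, CDC6 was called higher (edgeR adjusted p = 0.00303), as were 28.6% of all tested genes. The 191 neighbours of CDC6 had a median of 0.28 in this comparison, and CDC6 stood at -0.14 after that was subtracted.

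Members also differed between sets within a group. In a model with group and set, 10 of the 39 differed between sets (edgeR adjusted p under 0.05), where 8.07% of all tested genes did, and those with the lowest adjusted p were CLSPN, CDC6, FEN1 and UHRF1 (9.98e-05, 0.000296, 0.000547 and 0.00157). Set 3 was the low one on the drug. For 34 of the 39 members the lowest KO library was library 3, and for 31 the lowest WT palbociclib library was library 3, against 34.6% and 36.4% of all tested genes. On vehicle, library 3 was lowest for 19 of 39, against 35.7% of all tested genes. The median deviation of members from their group mean was -0.09 in KO library 3, -0.08 in WT palbociclib library 3 and -0.02 in vehicle library 3 on the log2 scale. The count of 10 fell to 4 without WT palbociclib library 3 or KO library 3 and to 5 without WT palbociclib library 1, and was 16 without vehicle library 3. Shares of all tested genes that differed between sets in those fits are not given here. The counts alone therefore do not tell a change among members from one over all genes.

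**Figure D4:**
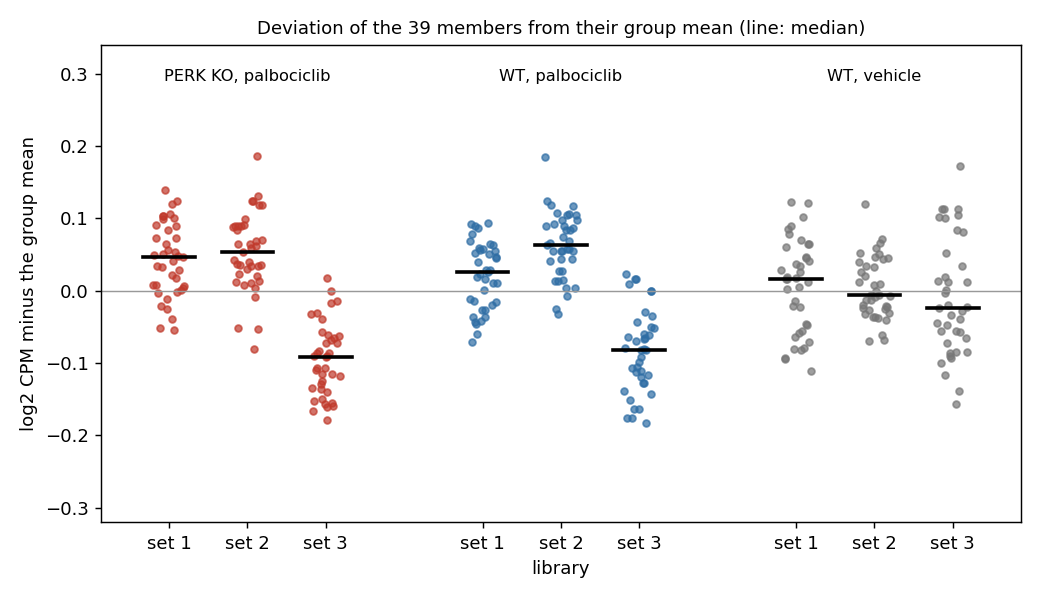
Deviation of each member's log2 CPM from its group mean (points, 39 per library) with the median (line), for the 3 libraries of KO on palbociclib, WT on palbociclib and WT on vehicle. The medians of library 3 lie at -0.09 and -0.08 in the KO and WT palbociclib groups and at -0.02 on vehicle.

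The wider replication and nucleotide pathway was followed in 60 other genes, of which 59 passed the filter. With palbociclib in WT cells 46 fell and 3 rose, where 22.3% of all tested genes were called lower and 21.3% higher, and the median log2 fold change was -0.36. PCLAF, a PCNA-binding factor, stood at 33.4, 29.8 and 27.1 CPM on palbociclib, against 53.3, 56.7 and 64.2 CPM on vehicle (-0.95 ± 0.077, edgeR adjusted p = 3.76e-08), and DUT, which removes dUTP, fell by 0.86 ± 0.053 on the log2 scale. The genes that rose were POLD4 (0.71 ± 0.17), the smallest polymerase delta subunit, at 5.54, 7.17 and 8.24 CPM on palbociclib, against 3.75, 3.93 and 5.17 CPM on vehicle, TK2 (0.21 ± 0.063), the mitochondrial thymidine kinase, and RRM2B (0.14 ± 0.053), the p53-induced reductase subunit. RRM2B and TK2 are the relatives of RRM2 and TK1 that are not tied to S phase, and they moved in the opposite direction to those members.

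In KO against WT cells on palbociclib, 16 of the 59 were higher and 7 lower (22 and 11 with the replicate block), with a median of 0.09. Over all tested genes 14.9% were higher and 13.0% lower (19.5% and 16.9% with the block), so the lower calls of the list lie near that background. DUT stood at 98.1, 91.8 and 87.7 CPM in KO libraries, against 72.6, 67.3 and 67.7 CPM in WT libraries on palbociclib (0.42 ± 0.053, edgeR adjusted p = 4.48e-06). CTPS2, a CTP synthase, stood at 5.96, 6.5 and 5.91 CPM in KO libraries, against 10.7, 11.5 and 10.9 CPM in WT libraries (-0.85 ± 0.092, edgeR adjusted p = 6.55e-07). SAMHD1, which breaks down deoxynucleotides, was lower by 0.33 on the log2 scale (edgeR adjusted p = 0.000784) with neighbours on chromosome 20 at -0.21.

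Some counts are uncertain because exons are shared with another annotated gene. At least 10% of the exon bases of POLA2, PRIM1, TIPIN, RRM2 and TYMS are shared (35.1% of POLA2, 20.2% of RRM2 with AC007240.1, whose counts were not analysed here, and 39.2% of TYMS with ENOSF1 on the other strand), and the sources used here do not say how such reads were assigned. The smallest count of any member in any library was 290, for POLA2.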

How the data were processed

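The deposited table holds raw counts per gene for 9 libraries, whole numbers that the authors did not normalize. The submitters' processing notes name CASAVA, FastQC, Trim Galore, STAR (2.7.9a), DESeq2 and build hg38, with no role or order. Which counter, strand option and annotation were used is not given in the sources here. Libraries were made with poly-T beads, per the labels' protocols. IDs without a gene symbol took 0.104 to 0.116% of counts and were kept.

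Groups came from the labels. Genes were tested with edgeR 4.0.16 (R 4.3.3): filterByExpr left 19408 genes with 99.91% of counts, TMM factors were 0.977 to 1.01, and a robust quasi-likelihood fit of all 9 libraries in 3 groups had 6 residual degrees of freedom. Calls are Benjamini-Hochberg adjusted p under 0.05 over all genes tested, each SE is the log2 fold change divided by the square root of F, and CPM use TMM-scaled totals. The fit was tested on simulated data with 1.5-fold and 2-fold changes and no difference between sets. It called 61 and 72 of 100 changed genes at these folds (51 of 52 and 54 of 54 at 10 CPM or more). Smaller changes were not simulated. Alternatives were DESeq2 1.42.0, limma-voom (limma 3.58.1), RLE size factors, no low-count filter, only the 2 groups compared, the set number as a replicate block, each library left out, and subtraction of the median of genes within 5 Mb. Set numbers were taken to pair libraries from the data, not from a label: across the 12932 genes whose mean log2 CPM exceeded 1, deviations from group means correlated at 0.176 to 0.541 between same-numbered libraries and at -0.401 to 0.0714 between others. Across all 19408 genes tested the correlations were weaker, at 0.0296 to 0.223 and -0.161 to 0.0439, and these ranges overlap.

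Gene positions are from GENCODE 29 (GRCh38). Values in every library are given for the member of each role with the largest change in each of the first 2 comparisons and for members called against the majority, with a few added for partners of these. Of the other genes, the 2 highest and 2 lowest called in each of those comparisons at a mean of at least 1 CPM are named, with RRM2B added after its value was seen and 1 gene not reported here. The members, lists and tests were chosen with earlier results of these data known, so no list is independent evidence.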

Additional observations from a re-analysis of the deposited data

How the results depend on the processing

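The 39 members called lower with palbociclib were called lower by every tool, scaling and filter tried and with the replicate block, and 37 to 39 were when a library was left out. Members called higher in KO cells on palbociclib numbered 21, against 17 with DESeq2, 19 with limma-voom, 15 with RLE size factors, 19 without the low-count filter, 20 with only the 2 groups compared and 24 with the replicate block, and 10 to 24 when a library was left out. Except for the replicate block, the shares of all tested genes called in these fits are not given. Those called lower numbered 2, but 1 had a negative value after neighbourhood subtraction, and 1 to 2 were called when a library was left out. In KO cells on palbociclib against WT cells on vehicle, 32 to 36 members were lower and 0 to 1 higher when a library was left out, and 1 was higher without the low-count filter or with the replicate block. The median there was -0.38 after neighbourhood subtraction, against -0.47 as reported, and -0.50 to -0.42 when a library was left out. Medians ran from -0.65 to -0.56 for palbociclib and from 0.12 to 0.22 for KO when a library was left out. Of the other replication genes, 7 were lower in KO cells, 11 with the replicate block and 3 to 9 when a library was left out, and 1 to 2 were higher in KO cells on palbociclib than in WT cells on vehicle when a library was left out. Members differing between sets numbered 10, and 4 to 16 when a library was left out, again without the shares of all tested genes. PCNA, called lower in KO cells on palbociclib at -0.35, stood at 0.24 after neighbourhood subtraction, which has no test. No other called member changed sign under the alternatives run. The cause of these changes was not tested. The 3 libraries a group limit the smallest difference that could be called.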

Other observations

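ASF1B, a histone chaperone of the other replication genes, had 0 counts in all 9 libraries. RNASEH2A, a subunit of the nuclease that removes RNA primers, had 240 counts in all libraries together (14 to 50 a library), and CHTF8 had 333 (18 to 57). ASF1B was therefore in no test, and the other two were tested at 1.44 CPM or less. RNASEH2A was called lower in WT cells on palbociclib, at 0.589, 0.566 and 0.368 CPM, against 1.27, 0.946 and 0.826 CPM on vehicle (edgeR adjusted p = 0.00779). Why these counts are low was not tested. The log2 ratio of RRM2 to RRM1 averaged 0.94 ± 0.054 in KO cells on palbociclib, 0.89 ± 0.036 in WT cells on palbociclib and 1.13 ± 0.079 in WT cells on vehicle (SD, n = 3 libraries). The log2 ratio of POLE2 to POLE averaged -1.84 ± 0.12, -1.94 ± 0.077 and -1.68 ± 0.11 in those groups. The log2 ratio of CHAF1B to CHAF1A, the subunits of the chromatin assembly factor, averaged -1.09 ± 0.09, -1.07 ± 0.056 and -1.06 ± 0.066, within the spread of each group.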
